A study of Mus musculus with 8 samples.

Results

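The enzymes described here are the aldehyde dehydrogenases (Aldh), aldo-keto reductases (Akr), cytosolic and mitochondrial glutathione transferases (Gst) and UDP-glucuronosyltransferases (Ugt) of mouse skin. They were chosen by name. A gene entered when the platform annotation gave a probe set exactly 1 symbol of these families, genes starting Aldh1a were left out, and of several probe sets the one with the highest mean log2 intensity over the 8 arrays was kept. This gave 61 genes of the 19935 tested, with 17 aldehyde dehydrogenases, 15 aldo-keto reductases, 18 glutathione transferases and 11 glucuronosyltransferases. The rule used symbols and the mean over both genotypes, not the difference between them. The families were nonetheless picked with earlier results of these data known. Their shares against all genes below thus describe this set and are no independent test. For the 2 genes with more than 1 probe set, the kept means over all arrays were 9.42 for Aldh3b3 and 4.89 for Gstm3.

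The arrays came from 4 skin samples of Adam10 wild-type mice and 4 of Adam10 knockout mice, 1 array per sample, and the comparison asks which transcripts differ when this membrane protease is lost. The knockout titles read cKO, which the labels do not spell out. The sources used here do not give strain, age, treatment, the promoter driving a deletion or the deleted exons, nor any allele that both groups share. The titles also hold a P followed by 57 to 60 in wild type and by 67, 68, 69 and 55 in knockouts 1 to 4, with no meaning given. One label names primary skin cells and another names skin, and this was not settled. Values are log2 of the deposited intensity, and a difference is the knockout mean minus the wild-type mean on that scale.

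Aldehyde dehydrogenases oxidise reactive aldehydes to acids, and aldo-keto reductases reduce aldehydes and ketones, including those of sugars and steroids, with NADPH. Glutathione transferases join electrophiles to the tripeptide glutathione, and glucuronosyltransferases join hydroxyl compounds to a sugar so that they can be carried out of the cell. In skin these enzymes handle products of lipid oxidation, steroid hormones and compounds that cross the surface. Many are best known from liver, and several are targets of the transcription factor Nrf2 (Nfe2l2) or of the aryl hydrocarbon receptor (Ahr).

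Adam10 had a mean of 7.28 ± 0.15 in the wild-type group and 6.92 ± 0.12 in the knockout group (n = 4 each, SD). The groups did not overlap, with a difference of -0.36 (SE 0.11, limma adjusted p = 0.064, exact two-sided permutation p = 0.0286, the smallest that 70 assignments allow). Keratinocyte markers were at high levels, with list means of 10.9 to 11.3 for suprabasal genes and 8.25 to 8.80 for basal genes on wild-type arrays, against array medians of 3.73 to 3.92. All 8 basal markers (median difference 1.00) and 2 of 5 melanocyte markers rose in the knockout, where 6.41% of all genes rose. In 5 of 9 macrophage, 2 of 6 sebocyte and 1 of 6 suprabasal markers there was a fall, where 2.34% of all genes fell. These lists were also chosen with earlier results of these data known. Of 37 skeletal muscle, adipocyte, dermal fibroblast and endothelial markers 0 passed in limma and 6 had an unadjusted p below 0.05, but wild-type array 4 held far more of them, with muscle at a list mean of 7.60 there against 3.96 to 4.20 on knockout arrays. Wild-type array 3 stood apart to a lesser degree, with centred medians of 1.61 for dermal and 0.75 for muscle markers against -0.89 and -0.66 on wild-type array 1, and results are therefore also given without arrays 3 and 4. Wild-type array 2 held Alb, the albumin of liver, at 7.42 against 2.26 to 3.09 on the other 7 arrays. The 8 hepatocyte markers, Alb among them, had a centred median of 0.74 there, against -0.36 to -0.01 on the other 7. Y chromosome genes had list means of 2.08 to 2.40 on wild-type array 1 and knockout arrays 1 and 4 and of 5.27 to 5.64 on the other 5 arrays. The part of these differences in the results below was not tested, and in bulk RNA fewer cells of a type and less RNA per cell cannot be told apart.

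Of the 61 enzymes 6 fell and 4 rose in the knockout. The genes that fell were Akr1d1, Gsto1, Aldh1l2, Gstm6, Gstm5 and Gsta3, and those that rose were Akr1b8, Aldh9a1, Gstm2 and Gstm1. The falls make 9.84% of the enzymes, where 2.34% of all genes fell. The rises make 6.56%, where 6.41% of all genes rose, so this share is near the background. The groups did not overlap for 6 enzymes toward lower values (9.84%, against 5.86% of all genes) and for 4 toward higher ones (6.56%, against 12.2%). The median difference of the enzymes was -0.08, with 38 of 61 below 0, against a median of 0.0027 over all genes, of which 49.6% were below 0. After median centring the enzymes' median was 0.02 and that of all genes 0.10. The sign of the enzymes' median thus depends on the scaling, but it stayed below the median of all genes.

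These counts moved with the scaling and with single arrays, as did the calls over all genes. Quantile normalization and cyclic loess each gave 2 rises and 7 falls, and median centring, which set the median of all genes at 0.10, gave 5 rises and 3 falls. In the first 2 fits the enzyme shares were 3.28% and 11.5%. Over all genes they were 4.25% and 2.49% for quantile normalization and 3.86% and 2.92% for cyclic loess. Median centring gave 8.20% and 4.92% of enzymes, against 12.3% and 1.43% of all genes. Leaving out wild-type array 1 gave 2 falls, wild-type array 3 gave 1, knockout array 1 gave 2, knockout array 2 gave 1, knockout array 3 gave 2 and knockout array 4 gave 11. The share of all genes that fell was, in the same order, 2.49%, 1.02%, 1.15%, 0.81%, 1.09% and 2.10%. For rises, dropping wild-type array 2 or 3 gave 2 and dropping knockout array 2 or 3 gave 1. The share of all genes that rose was, in the same order, 3.72%, 2.74%, 2.14% and 2.96%. Without wild-type arrays 3 and 4 together it was 1 rise and 5 falls (1.64% and 8.20%, against 2.96% and 1.68% of all genes). The share of enzymes that fell was above that of all genes in each of the 17 alternatives run. The shares were closest, as a ratio, without wild-type array 1 (3.28% against 2.49%), and the share of enzymes was 1.64% both without wild-type array 3 (against 1.02%) and without knockout array 2 (against 0.81%). The share that rose was above that of all genes in 3 of the 17.

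**Figure D1:**
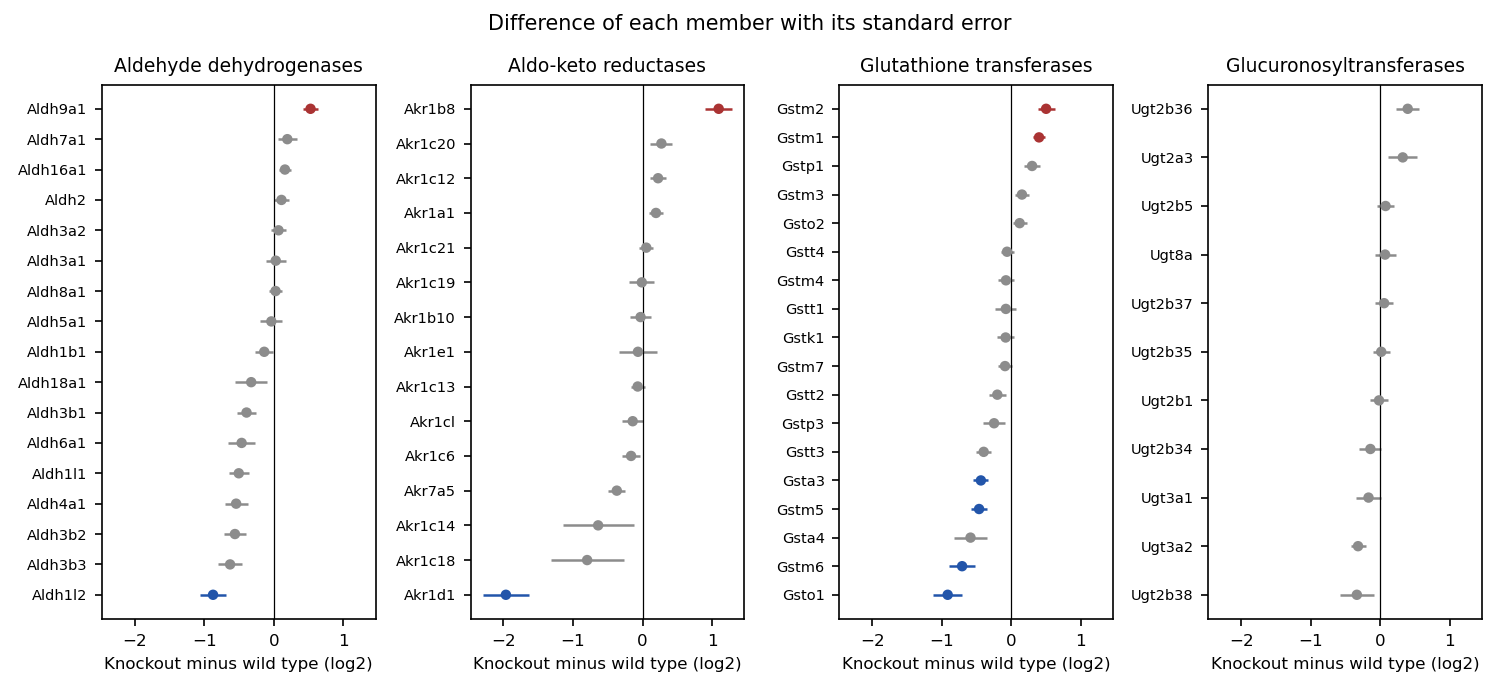
Difference in log2 intensity (knockout mean minus wild-type mean) for each of the 61 enzymes, in 4 panels by family, with points at the difference and lines of 1 standard error either side. Blue marks the 6 that fell, red the 4 that rose and grey the rest, and the glucuronosyltransferases lie within -0.34 and 0.40.

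The aldo-keto reductases held both the largest fall and the largest rise. Akr1d1, which reduces the first ring of steroid hormones and bile acid precursors, stood at 5.72, 5.47, 5.59 and 4.88 on wild-type arrays 1 to 4 and at 3.98, 2.90, 2.72 and 4.20 on knockout arrays 1 to 4. All knockout values were below all wild-type values, and within the knockouts arrays 1 and 4, those with low Y chromosome signal, were the higher pair. The fall was 3.90-fold (log2 -1.97, SE 0.33, adjusted p = 0.0074). It passed in each of the 17 alternatives, with -2.17 when the Y chromosome signal was a covariate, -2.14 without wild-type array 4 and -1.10 on log2 of the value plus 16. On wild-type array 2, where Alb was high, Akr1d1 read 5.47, and whether the 2 are related was not tested.

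Akr1b8, an aldose reductase-like enzyme first found as induced by fibroblast growth factor, stood at 4.13, 4.38, 4.00 and 3.60 in wild type and 5.58, 4.94, 5.07 and 4.89 in knockout. Each knockout array was above each wild-type array. The rise was 2.14-fold (log2 1.09, SE 0.19, adjusted p = 0.0086) and it too passed in each of the 17, lowest at 0.65 on log2 of the value plus 16. Akr1b10, its neighbour on the chromosome with no other protein-coding gene between them, had a difference of -0.03 (SE 0.15). How far probes of one bind transcripts of the other was not tested.

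Of the other 13 aldo-keto reductases 0 passed in limma and 1, Akr7a5, had an unadjusted p below 0.05. Akr1a1, which reduces glucuronate on the mouse route to vitamin C, had wild-type and knockout means of 9.63 ± 0.14 and 9.82 ± 0.06 (n = 4 each, SD; difference 0.19, SE 0.10). Akr7a5, a reductase of succinic semialdehyde and other aldehydes, was at 5.89 ± 0.13 and 5.51 ± 0.20 (difference -0.37, SE 0.12, adjusted p = 0.088). In Akr1c18, an enzyme that inactivates progesterone, wild-type arrays 1 to 3 read 2.38, 1.97 and 2.23, wild-type array 4 read 4.86 and the knockouts 1.84 to 2.24. Akr1c14, a hydroxysteroid dehydrogenase next to it on the chromosome, showed the same single high array, at 4.06 against 1.29 to 1.65 on the other 7. That array also held the high muscle, fat and dermal markers. Without it the Akr1c18 difference was -0.13 in place of -0.80. For 6 of the Akr1c genes every array lay below its 25th percentile of log2 intensity (2.15 to 2.28), where a difference may not be detectable.

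Among the aldehyde dehydrogenases Aldh1l2 fell and Aldh9a1 rose. Aldh1l2, the mitochondrial enzyme that oxidises formyl-tetrahydrofolate, read 4.94, 4.72, 4.79 and 4.61 in wild type and 4.03, 3.77, 3.40 and 4.39 in knockout. The groups did not overlap, and knockout array 4 came nearest to wild type. The fall was 1.83-fold (log2 -0.87, SE 0.19, adjusted p = 0.020), and the call was lost without wild-type array 3 (adjusted p = 0.059) or knockout array 2 (0.073). Aldh9a1, which acts in carnitine synthesis, read 7.12, 7.00, 7.07 and 6.89 in wild type and 7.53, 7.70, 7.63 and 7.33 in knockout. Its lowest knockout value, on array 4, was still above every wild-type value. The rise was 1.44-fold (log2 0.53, SE 0.11, adjusted p = 0.016). That call was lost without knockout array 2 (adjusted p = 0.061) or 3 (0.053) and without wild-type arrays 3 and 4 together (0.073).

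A further group of aldehyde dehydrogenases had lower knockout means but missed the threshold. Aldh3b3 and Aldh3b2, adjacent genes for enzymes that oxidise lipid aldehydes, had differences of -0.63 (SE 0.17, adjusted p = 0.0505) and -0.56 (SE 0.16, adjusted p = 0.054). In both, knockout arrays 1 to 3 were below every wild-type value (for Aldh3b3 8.73 to 9.14 against 9.48 to 9.88) and knockout array 4 was within the wild-type range (9.59). The other probe sets annotated to Aldh3b3 alone differed by -0.99 (SE 0.25) and -0.71 (SE 0.24), the same direction with another size. Aldh3b2 and Aldh3b3 passed in 8 of the 17 alternatives each. Aldh4a1, of proline breakdown, and Aldh1l1, the cytosolic partner of Aldh1l2, showed this arrangement too, with differences of -0.54 (SE 0.17) and -0.50 (SE 0.15). For Aldh1l1 the wild-type values were 4.82 to 4.88, knockout arrays 1 to 3 read 4.16, 4.16 and 4.27, and knockout array 4 read 4.83.

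The remaining aldehyde dehydrogenases showed differences of -0.46 to 0.19. Among them Aldh6a1 (-0.46, SE 0.19, limma adjusted p = 0.16) and Aldh3b1 (-0.39, SE 0.13, adjusted p = 0.093) had an unadjusted p below 0.05. Aldh18a1, an enzyme of proline synthesis, had the widest spread within groups of this family, with means of 7.01 ± 0.49 for wild type and 6.69 ± 0.27 for knockout (n = 4 each, SD; difference -0.32, SE 0.23). Aldh2, which clears acetaldehyde, differed by 0.11 (SE 0.11), and Aldh3a2, the fatty aldehyde dehydrogenase whose loss in people causes a scaling skin disease, by 0.07 (SE 0.11). The Aldh2 difference was about the size of its error, and the Aldh3a2 difference was smaller than its error.

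Of the 18 glutathione transferases 4 fell and 2 rose. Gsto1, the omega-class enzyme, which reduces rather than conjugates many of its substrates, read 8.93, 8.75, 8.88 and 8.32 in wild type and 7.74, 7.55, 7.50 and 8.43 in knockout. Knockout array 4 was above wild-type array 4, so the groups overlapped. Gsto1 fell 1.89-fold (log2 -0.92, SE 0.21, adjusted p = 0.026), losing the call in 6 of 8 fits with 1 array left out (highest adjusted p = 0.091), and without knockout array 4 the difference was -1.12 (adjusted p = 0.0052). Over these 8 fits the difference ran from -1.12 to -0.82, and the share of all genes called moved as well. Its neighbour Gsto2 differed by 0.12 (SE 0.10).

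Of the alpha class 1 of 2 measured members fell. Gsta3 read 4.39, 4.28, 4.10 and 3.99 in wild type and 3.69, 3.86, 3.75 and 3.71 in knockout, with no overlap. It fell 1.36-fold (log2 -0.44, SE 0.11, adjusted p = 0.034), and the call was lost in 7 of 8 fits with 1 array left out and under all 3 other normalizations and with the Y chromosome covariate. Over the 8 fits with 1 array left out the Gsta3 difference ran from -0.51 to -0.37. Gsta4, which conjugates hydroxynonenal, a product of lipid peroxidation, had means of 6.27 ± 0.26 for wild type and 5.69 ± 0.54 for knockout (n = 4 each, SD; difference -0.59, SE 0.24, adjusted p = 0.16). Its knockout array 4 read 6.42 and the other knockouts 5.14 to 5.63. Without that array its difference was -0.83 (SE 0.17, adjusted p = 0.024).

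The 7 mu-class genes lie side by side on 1 chromosome, and 2 of them fell, 2 rose and 3 did not pass. Along it the order is Gstm5, Gstm7, Gstm6, Gstm3, Gstm2, Gstm1 and Gstm4, with differences of -0.46, -0.09, -0.71, 0.15, 0.50, 0.40 and -0.08. The other probe set annotated to Gstm3 alone differed by 0.08 (SE 0.15). Gstm5 read 6.77, 6.48, 6.63 and 6.83 in wild type and 6.13, 6.13, 6.14 and 6.46 in knockout (SE 0.12, adjusted p = 0.037). The knockouts lay below all wild-type values, closest on array 4. Gstm6 read 3.81, 2.96, 3.36 and 3.39 in wild type and 2.42, 2.65, 2.58 and 3.04 in knockout (SE 0.18, adjusted p = 0.041). It overlapped through 1 array of each group, and all 8 values were below their array median.

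At the other side of the cluster Gstm2 read 6.54, 5.98, 6.21 and 6.06 in wild type and 6.66, 6.73, 6.68 and 6.72 in knockout (SE 0.12, adjusted p = 0.034). Gstm1 read 6.42, 6.23, 6.42 and 6.38 in wild type and 6.63, 6.81, 6.83 and 6.77 in knockout (SE 0.09, adjusted p = 0.027). In both genes every knockout array was above every wild-type array, and the Gstm2 knockouts were tightly grouped (SD 0.04). All 4 calls of this cluster were fragile. With 1 array left out they were lost in 6 of 8 fits for Gstm5, 5 for Gstm6, 6 for Gstm2 and 4 for Gstm1, and without wild-type arrays 3 and 4 together all 4 were lost. Over the 8 fits the differences ran from -0.55 to -0.41 for Gstm5 and from -0.85 to -0.57 for Gstm6. They ran from 0.43 to 0.61 for Gstm2 and from 0.35 to 0.44 for Gstm1. The share of all genes called moved in the same fits. Rises ran from 2.14% to 7.11% and falls from 0.81% to 3.25%, against 6.41% and 2.34% with all arrays. Quantile normalization and cyclic loess ended the calls of Gstm1, Gstm2 and Gstm6, median centring those of Gstm5 and Gstm6, the Y chromosome covariate that of Gstm2 and log2 of the value plus 16 that of Gstm6. The direction of each of the 4 stayed the same in all of these fits. Mu-class transcripts are alike in sequence, and cross-binding of their probes was not tested.

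**Figure D2:**
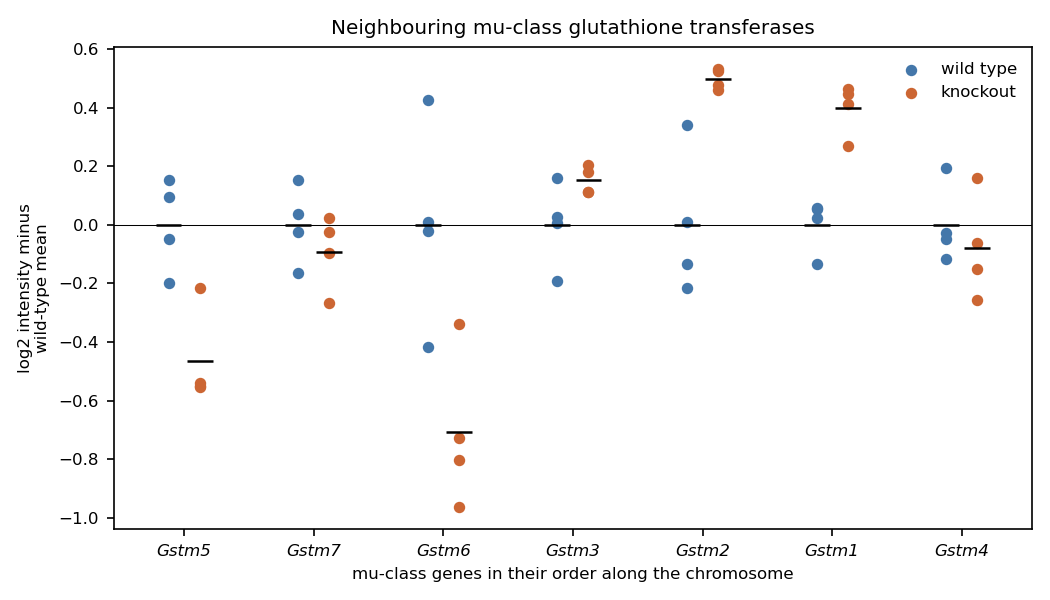
Log2 intensity minus the wild-type mean of each of the 7 mu-class genes, in their order along the chromosome, with a point for each array and a line at each group mean. Knockout means are at -0.46 for Gstm5 and -0.71 for Gstm6 and at 0.50 for Gstm2 and 0.40 for Gstm1.

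Of the 7 kappa, pi and theta genes 0 passed in limma and 2, Gstp1 and Gstt3, had an unadjusted p below 0.05. Gstp1, the pi-class enzyme abundant in epithelia, read 8.39, 8.37, 8.15 and 8.58 in wild type and 8.53, 8.82, 8.74 and 8.60 in knockout (difference 0.30, SE 0.12, adjusted p = 0.14). It passed after median centring. Gstt3, of the theta class, read 4.65 to 4.72 in wild type and 4.09, 4.28, 4.19 and 4.57 in knockout, without overlap (difference -0.40, SE 0.11, adjusted p = 0.054). The other theta genes, which neighbour it, differed by -0.20 to -0.06. Gstk1, of mitochondria and peroxisomes, differed by -0.08 (SE 0.12).

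Glucuronosyltransferases with a probe set of their own were dim. For 8 of the 11 all arrays lay below their 25th percentile, and 0 of 11 were above the array median on 4 or more arrays, against 30 of all 61 enzymes. Among the 11, 0 passed in limma and 2, Ugt3a2 and Ugt2b36, had an unadjusted p below 0.05. Ugt3a2, which uses other sugars than glucuronate, was the 1 member without overlap, at 2.55 to 2.91 in wild type and 2.32 to 2.53 in knockout (difference -0.32, SE 0.11, adjusted p = 0.097). Ugt2b37, in a run of 8 neighbouring Ugt2 genes, differed by 0.06 (SE 0.13) and was at -0.035 without wild-type arrays 3 and 4. Ugt2b38 had the widest spread within groups, with means of 1.48 ± 0.39 for wild type and 1.15 ± 0.45 for knockout (n = 4 each, SD). Ugt8a, which builds galactosylceramide rather than glucuronides, differed by 0.07 (SE 0.15). At these levels a change may go undetected.

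**Figure D3:**
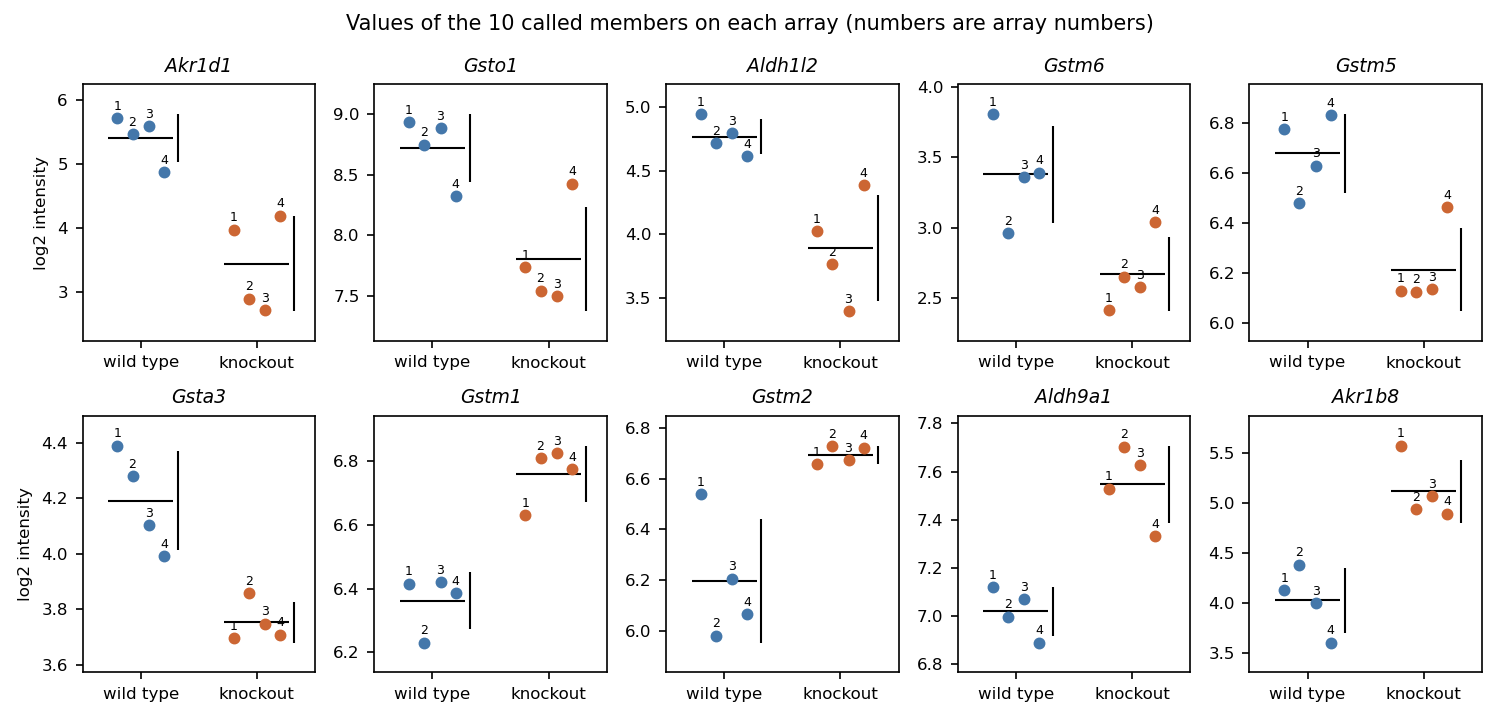
Log2 intensity of the 10 enzymes that fell or rose, 1 panel each with its own scale, with numbered points for arrays 1 to 4 of each group, a horizontal line at the group mean and a vertical line of 1 SD either side. The groups overlap for Gsto1 and Gstm6 and for none of the other 8.

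The lower enzymes shared an arrangement within the knockouts. Knockout array 4 was the highest knockout in 5 of the 6 enzymes that fell, where this held for 52.2% of all 467 genes that fell. Over the 38 enzymes with a difference below 0 it was the highest in 24 (63.2%), against 30.4% of all genes below 0. Without this array 11 enzymes fell, 18.0% of them against 2.10% of all genes, namely Akr1d1, Gsto1, Aldh1l2, Gstm5 and Gstm6 again and Aldh1l1, Aldh3b2, Aldh3b3, Aldh4a1, Gsta4 and Gstt3 in addition. Adam10 itself was not higher on this array, at 6.79 against 6.85 to 7.04 on the other knockouts. After each gene was centred over the 8 arrays, the sebocyte markers had a median of -0.08 on knockout array 4 and of -0.50 to -0.12 on the other knockouts, the macrophage markers -0.22 against -0.71 to -0.16, and the basal keratinocyte markers 0.28 against 0.48 to 0.63. Its title number, 55, stands apart from 67, 68 and 69 of the other knockouts and lies nearer to the wild-type numbers, 57 to 60. Without this array the title numbers split the arrays exactly as genotype does. In that fit genotype and whatever the number stands for cannot be told apart. The part of any of these in the arrangement was not tested, and the array was singled out after its values were seen.

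**Figure D4:**
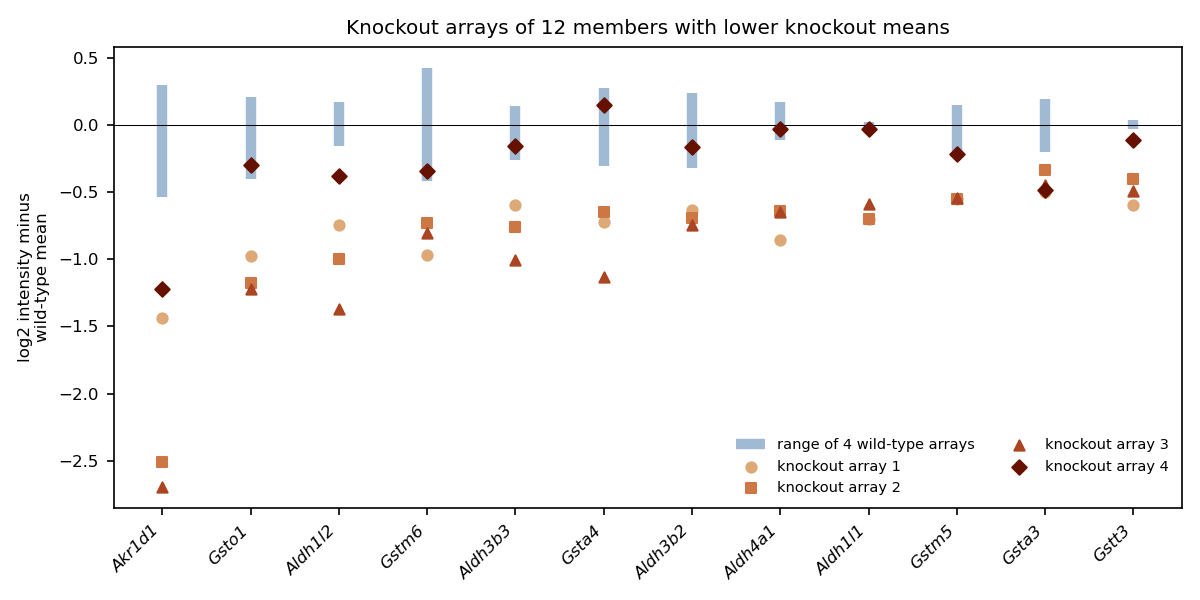
Log2 intensity minus the wild-type mean for the 12 enzymes that fell with all arrays or without knockout array 4, with a bar for the range of the 4 wild-type arrays and a symbol for each knockout array. Knockout array 4 (dark diamonds) is the highest knockout for 11 of the 12, which the choice of genes largely fixes, since 6 of them pass only once that array is removed.

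Promoters of the enzymes are shown for the largest rise, for Aldh9a1, and for 1 gene from each direction of the mu cluster. RefSeq (GRCm38.p6) promoters matched 52 of the 61 genes, with 60 start sites. The 250 bases before each start were searched on both strands for TGACNNNGC (antioxidant response element, bound by Nrf2), TGANTCA (AP-1), GCGTG (dioxin response element, bound by Ahr) and TGGGAA (RBPJ, the DNA-binding partner of Notch). Matches of different letters can overlap, as in Gstm5, where GCGTG shares bases with TGANTCA and with TGACNNNGC in the merged capitals. Capitals mark every match, and positions count back from the start.
Akr1b8, chr6:34353896-34354145, plus strand: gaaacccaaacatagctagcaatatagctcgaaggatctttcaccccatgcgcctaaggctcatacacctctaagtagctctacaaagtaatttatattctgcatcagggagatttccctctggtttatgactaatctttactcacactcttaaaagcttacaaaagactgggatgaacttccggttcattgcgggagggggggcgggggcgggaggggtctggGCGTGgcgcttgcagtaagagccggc
Aldh9a1, chr1:167349741-167349990, plus strand: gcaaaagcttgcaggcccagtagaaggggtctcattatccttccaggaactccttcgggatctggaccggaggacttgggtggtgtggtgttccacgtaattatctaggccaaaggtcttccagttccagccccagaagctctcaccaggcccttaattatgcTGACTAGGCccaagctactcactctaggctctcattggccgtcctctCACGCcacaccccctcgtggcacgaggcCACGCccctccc
Gstm2, chr3:107986421-107986670, minus strand: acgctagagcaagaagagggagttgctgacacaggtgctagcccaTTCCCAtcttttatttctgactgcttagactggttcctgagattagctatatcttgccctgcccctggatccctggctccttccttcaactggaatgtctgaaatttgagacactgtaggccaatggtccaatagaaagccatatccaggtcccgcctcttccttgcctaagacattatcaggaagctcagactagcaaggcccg
Gstm5, chr3:107895604-107895853, plus strand: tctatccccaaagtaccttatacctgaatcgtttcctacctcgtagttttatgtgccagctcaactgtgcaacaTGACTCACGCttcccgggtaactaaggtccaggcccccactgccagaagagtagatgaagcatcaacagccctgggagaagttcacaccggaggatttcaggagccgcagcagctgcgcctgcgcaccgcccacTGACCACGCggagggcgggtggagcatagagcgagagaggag

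Akr1b8 held GCGTG at -26 and none of the other letters, and Aldh9a1 held TGACNNNGC at -87 and GCGTG at -40 and -12. Gstm2, which rose, held TGGGAA at -205, while Gstm5, which fell, held TGANTCA at -176, TGACNNNGC at -42 and GCGTG at -171 and -38. Over the 60 start sites of the enzymes TGACNNNGC was found in 5 (8.33%), against 10.2% of all 32851 promoters of the same length. The shares were 10.0% against 6.75% for TGANTCA, 20.0% against 28.2% for GCGTG and 26.7% against 21.6% for TGGGAA. Among genes that rose GCGTG was in 4 of 5 starts (3 of 4 genes) and among those that fell in 1 of 7 (1 of 5 genes), a split noticed after the values were seen and not tested. The windows of the 2 Gstm1 starts overlap and hold the same GCGTG site, which is counted for both. Akr1d1 and Gsto1, the largest falls, held none of the letters searched. TGANTCA was in 0 of the 5 and 1 of the 7, TGACNNNGC in 1 and 2, and TGGGAA in 1 and 2. These are letter matches in one window.

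Genes that supply, assist or regulate these enzymes were read from lists that hold none of the 61. The lists were chosen with earlier results of these data known, so their shares against all genes are descriptions only. Of 75 measured genes 10 rose (13.3%, against 6.41% of all genes) and 6 fell (8.0%, against 2.34%), with a median difference of -0.01. In glutathione metabolism Gclc, the catalytic subunit of the rate-limiting step of glutathione synthesis, rose by 0.42 (SE 0.11, limma adjusted p = 0.041). Gsr, which regenerates glutathione, rose by 0.56 (SE 0.11, adjusted p = 0.014), whereas Me1, a source of NADPH, fell by 0.41 (SE 0.09, adjusted p = 0.023). Those were 3 of the 14 measured genes of the Nrf2 and glutathione list. Nfe2l2 itself differed by 0.10 (SE 0.09, adjusted p = 0.53).

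The list of other glutathione transferases and related genes, with microsomal, prostaglandin-synthesising and further members, gave 2 rises and 3 falls among 8. Mgst2, a microsomal enzyme that also makes leukotriene, read 7.18 to 7.23 in wild type and 6.03 to 6.39 in knockout and fell 2.08-fold (log2 -1.05, SE 0.10, adjusted p = 0.0010). Its groups were far apart relative to their spread. Mgst1 differed by -1.69 (SE 0.46, adjusted p = 0.048), with wild-type array 4 at 7.54 and the other wild-type arrays at 5.33 to 5.41, against 3.72 to 4.72 in knockout. Hpgds, the prostaglandin D synthase of immune cells, fell by 0.53 (SE 0.11, adjusted p = 0.015). Ptges, the inducible prostaglandin E synthase, rose by 0.78 (SE 0.13, adjusted p = 0.0076). Gstcd, a little-studied gene with a transferase-like domain, rose by 0.48 (SE 0.13, adjusted p = 0.044) with overlap between the groups.

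For glucuronidation, Ugdh, which makes UDP-glucuronate, rose by 0.55 (SE 0.13, limma adjusted p = 0.033). Slc35d1, which carries UDP-glucuronate into the endoplasmic reticulum, rose by 0.59 (SE 0.12, adjusted p = 0.019), while Abcc3, which exports glucuronides, fell by 0.66 (SE 0.10, adjusted p = 0.0053). Of the 7 exporters measured 2 rose and 1, Abcc3, fell. Abcg2 read 4.35 to 4.87 in wild type and 5.76 to 6.22 in knockout, a 2.71-fold rise (log2 1.44, SE 0.14, adjusted p = 0.0010). Abcb1b, a P-glycoprotein, rose by 0.62 (SE 0.17, adjusted p = 0.047). Adh1, an alcohol dehydrogenase of the retinol and ethanol routes, fell by 1.12 (SE 0.21, adjusted p = 0.011). Ephx1, the microsomal epoxide hydrolase, rose by 0.76 (SE 0.11, adjusted p = 0.0046) and Ahr rose by 0.48 (SE 0.12, adjusted p = 0.035). In limma 0 of 16 sulfotransferases and other conjugating genes passed and 1 had an unadjusted p below 0.05, and of 8 steroid enzymes 0 passed and 0 had such a p.

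**Figure D5:**
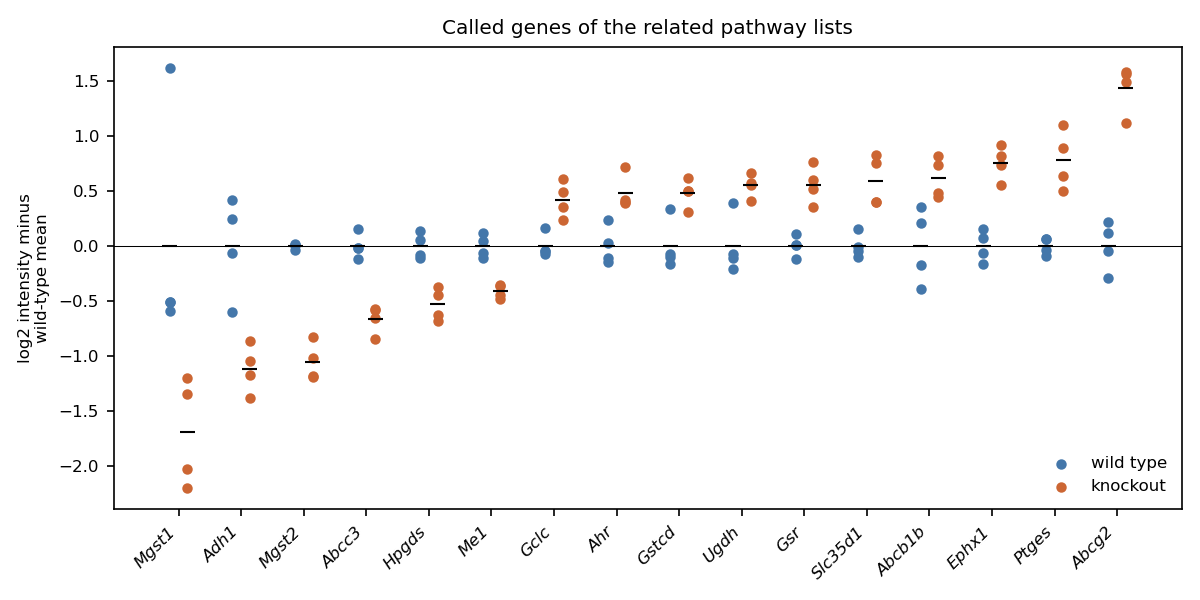
Log2 intensity minus the wild-type mean for the 16 genes of the related lists that fell or rose, with a point for each array and a line at each group mean. Mgst1 has 1 wild-type array far above the others, and Abcg2 has the largest rise.

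Leaving out single arrays changed these counts too. Of the 75 genes, 4 rose when wild-type array 2 was dropped, 5 for wild-type array 3, 6 for wild-type array 4, 5 for knockout array 1, 3 for knockout array 2, 4 for knockout array 3 and 6 for knockout array 4. With all arrays 6.41% of all genes rose. In the same order, up to knockout array 3, that share was 3.72%, 2.74%, 6.77%, 3.42%, 2.14% and 2.96%. Dropping wild-type array 3, knockout array 2 or knockout array 3 left 3 falls. The share of all genes that fell was then 1.02%, 0.81% and 1.09%, against 2.34% with all arrays. Without wild-type arrays 3 and 4 together 4 rose and 4 fell, where 2.96% of all genes rose and 1.68% fell.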

How the data were processed

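Expression was measured on Affymetrix Mouse Gene 1.0 arrays, 4 per genotype. Each deposited value is a linear intensity for 1 probe set on 1 array, and the authors used RMA (background correction, normalization and probe summary) per the submitters' processing notes. The RMA version and settings and the build were not stated there. The values ran from 0.817 to 11173, so log2 was taken with no pseudocount. Of 35519 probe sets 21780 had 1 symbol, 1605 several and 12134 none, and the highest mean log2 per gene left 19935 genes.

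The genotypes were compared by limma 3.58.1 under R 4.3.3 (lmFit and eBayes, two-sided tests). Benjamini-Hochberg adjustment covered all 19935 genes, calls were made at 0.05, and the script was tested on simulated data. Nothing in the labels says that each sample is a separate animal, so p-values measure the spread between these samples. Arrays give no depth, and their number limits the precision. Scan dates, probe-level values and detection calls were not used here, so neither another background correction nor a scan batch could be tried. Dim means below the 25th percentile of the array.

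Named are the members that passed, up to 6 others without overlap with the largest differences, in each family the 2 of highest mean and the 1 of widest spread within groups, and the related genes that passed. Others were named after their values were seen. Members and lists were chosen with earlier results of these data known. Alternatives were 3 normalizations, a dim filter (above the array median on 4 arrays), the mean of probe sets, another prior, log2 of value plus 16, a Y chromosome covariate, and arrays left out.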

Additional observations from a re-analysis of the deposited data

Results flagged for a closer look

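Dixon's test was applied to 46 groups of 4 arrays (22 named enzymes and Adam10 in each genotype). In 3 groups the gap of 1 array to its nearest neighbour was more than the critical share of the group's range. About 1 in 20 is flagged by chance, and 3 of 46 is near that rate. The rate does not hold for enzymes named for their wide spread within groups, Akr1c18 among them. In Akr1c18, wild-type array 4 read 4.86 and the next highest wild-type array 2.38 (gap 0.858 of the range). In Gstm5, knockout array 4 read 6.46 and the next knockout 6.14 (gap 0.966 of the range). In Adam10, wild-type array 3 read 7.06 and the next lowest wild-type array 7.33 (gap 0.831 of the range).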

How the results depend on the processing

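The number of enzymes that rose was 4, and 2 under quantile normalization, 2 under cyclic loess and 1 without wild-type arrays 3 and 4, with 1 to 4 when 1 array was left out. The share of all genes that rose was 6.41%, and 4.25%, 3.86% and 2.96% in the first 3 of these alternatives. It was 2.14% to 7.11% when 1 array was left out. The number of enzymes that fell was 6, and 3 under median centring and 10 of 30 tested under the dim filter, with 1 to 11 when 1 array was left out. The share of all genes that fell was 2.34%, and 1.43% under median centring and 4.99% under the dim filter. It was 0.81% to 3.25% when 1 array was left out. Among the related genes the rises were 10, and 6 under quantile normalization, 6 under cyclic loess and 4 without wild-type arrays 3 and 4, with 3 to 10 when 1 array was left out. The falls there were 6, with 3 to 7 when 1 array was left out. Over all genes the share of rises among calls was 73.2%, 63.0% under quantile normalization, 56.9% under cyclic loess and 89.6% under median centring. Adam10 passed under quantile normalization (-0.46, adjusted p = 0.033), cyclic loess (-0.49, adjusted p = 0.027), the dim filter (-0.36, adjusted p = 0.036), the trended and robust prior (-0.36, adjusted p = 0.049) and log2 of value plus 16 (-0.32, adjusted p = 0.037), and its adjusted p ran up to 0.15 without knockout array 1. Ugt2b37, which did not pass in any fit, changed sign without wild-type arrays 3 and 4 (-0.035) and without wild-type array 3 (-0.0041 to 0.173 when 1 array was left out). The dim filter tests 12085 genes and the array-loss fits fewer samples. The cause of the other changes was not tested. No paired analysis was possible because the labels give the groups no shared replicate numbers.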

Other observations

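The annotation pairs 11 probe sets with more than 1 gene, at least 1 of them in these families, and no gene can be named from them. They were fitted with limma over all 35519 probe sets, an addition made after the data were seen. The probe sets 10423002 and 10427624, each paired with 2 glucuronosyltransferase genes, were lower in the knockout by far more than any glucuronosyltransferase with a probe set of its own. The first read 4.49, 3.72, 4.13 and 3.77 in wild type and 2.49, 2.53, 2.46 and 3.00 in knockout (difference -1.41, SE 0.20, adjusted p = 0.013). The second differed by -1.31 (SE 0.16, adjusted p = 0.011), and neither overlapped between the groups. A probe set paired with 8 glucuronosyltransferase genes, 10348354, had means of 6.13 ± 0.24 for wild type and 5.73 ± 0.13 for knockout (n = 4 each, SD; difference -0.40, SE 0.14, adjusted p = 0.15).

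Glutathione transferases also had such probe sets. In the 4 paired with 4 genes each, 2 of them glutathione transferases, the differences were -0.53, -0.52, -0.50 and -0.53 (adjusted p 0.058 to 0.064), and they may measure the same transcripts. A further pair of probe sets, each paired with 2 glutathione transferase genes, differed by 0.23 (SE 0.10) and 0.20 (SE 0.10). The probe set paired with 2 aldehyde dehydrogenase genes, 10460253, read 9.32 to 9.83 in wild type and 8.88 to 9.29 in knockout (difference -0.61, SE 0.14, adjusted p = 0.055).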
